A study of Homo sapiens with 40 samples.

Results

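The metallothioneins measured here were 10 genes out of 44584 gene entries in the count table, namely MT1A, MT1E, MT1F, MT1G, MT1H, MT1L, MT1M, MT1X, MT2A and MT3. They were taken by name. The family was chosen by the measured counts of MT2A, which was higher with HRG than with vehicle in BT474R at 24 h, so that comparison is given as a description without a test. RNA was sequenced from BT474, a HER2-amplified luminal breast cancer cell line that is sensitive to trastuzumab, and from BT474R, which is a single resistant clone (clone 5) grown in 10 µg/mL of the antibody. Cells of both lines were plated for 48 h and starved overnight in 0.1% serum, which gave the T0 group. They then received EGF at 50 ng/mL, heregulin (HRG) at 10 ng/mL or water as vehicle, each in freshly made starvation medium. Cells were collected after 1 h, after 12 h or after 24 h. Vehicle against T0 thus combines water, the medium change and time, which cannot be told apart. EGF binds EGFR and HRG binds HER3 and HER4, and both drive pairing of these receptors with HER2. Each of the 20 groups (10 per line) had 2 libraries, 40 in all. Treatments were made in duplicate, and nothing states whether the duplicates came from separate passages or days, so the p-values measure only the spread between these duplicates, which may be technical.

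Metallothioneins are small, cysteine-rich proteins that bind zinc and copper, and also cadmium when it is present, and they buffer the free metal in the cell. When zinc rises, the zinc-sensing transcription factor MTF1 binds short metal response elements in their promoters and switches them on together with SLC30A1, which exports zinc from the cell. Glucocorticoids and oxidative stress are other known inducers of MT2A and of several MT1 genes. In people the genes lie side by side on the long arm of chromosome 16, where MT2A and the MT1 genes are expressed in many tissues and MT3 mainly in brain.

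Promoter sequences were at hand for 3 of the 10 genes (RefSeq, GRCh38.p14). They are shown because MT2A was the most abundant member, MT1X was detected in both lines, and MT1H had almost no reads. Each line is the 250 bases before the annotated start, all on the plus strand, at chr16:56608334-56608583 for MT2A, chr16:56682220-56682469 for MT1X and chr16:56669564-56669813 for MT1H. Capitals mark the core of the metal response element, searched as TGCACNC and TGCGCNC on both strands.
MT2A: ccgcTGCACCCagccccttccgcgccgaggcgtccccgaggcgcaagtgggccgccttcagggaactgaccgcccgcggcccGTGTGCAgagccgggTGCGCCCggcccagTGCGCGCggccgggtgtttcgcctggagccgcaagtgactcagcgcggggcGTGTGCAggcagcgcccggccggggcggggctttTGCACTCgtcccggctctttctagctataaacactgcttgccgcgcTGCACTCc
MT1X: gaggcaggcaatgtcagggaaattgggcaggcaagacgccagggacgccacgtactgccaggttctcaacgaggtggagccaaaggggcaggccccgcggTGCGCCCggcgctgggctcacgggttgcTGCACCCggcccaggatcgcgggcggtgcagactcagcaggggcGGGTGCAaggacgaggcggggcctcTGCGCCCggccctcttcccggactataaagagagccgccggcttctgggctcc
MT1H: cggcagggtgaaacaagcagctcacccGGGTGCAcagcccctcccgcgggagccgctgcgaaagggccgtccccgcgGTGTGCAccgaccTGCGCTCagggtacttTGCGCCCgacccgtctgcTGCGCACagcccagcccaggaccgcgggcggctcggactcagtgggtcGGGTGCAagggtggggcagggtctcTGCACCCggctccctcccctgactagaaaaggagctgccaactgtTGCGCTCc
With the 50 bases after the start included, the core occurred 8 times at MT2A, 4 times at MT1X and 8 times at MT1H. Of 35116 promoters of the same length, 29.6% held at least 1 copy, 0.601% held at least 4 and 0.074% held at least 6. Thus MT1H, with reads in few libraries, had as many matches as MT2A. These are matches of letters and not bound sites.

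All 10 genes lay on chromosome 16 between 56589074 and 56684196 (GRCh38, GENCODE v44). From the centromere side the order was MT3 (56589074 to 56591088), MT2A (56608584 to 56609497), MT1L (56617563 to 56618680), MT1E (56625475 to 56627112), MT1M (56632659 to 56633981), MT1A (56638666 to 56640087), MT1F (56657731 to 56660698), MT1G (56666730 to 56668065), MT1H (56669814 to 56671129) and MT1X (56682470 to 56684196). MT1G was on the minus strand and the other genes were on the plus strand. MT1L is a transcribed pseudogene, and the remaining 9 are protein-coding genes with 3 exons each, apart from MT1E with 2. The paralogs are similar in sequence, so reads can be split between them. Of all windows of 50 bases along the transcript, the share found unchanged in another metallothionein was 10.2% for MT2A, 18.0% for MT1X, 6.12% for MT1F and 5.76% for MT1A. MT1X also overlapped an unnamed long non-coding RNA gene, so that 51.0% of its windows were shared with some other gene. Since the sources used here do not say whether strand was used in counting or how reads with several matches were handled, MT1X values are the least certain of the 4.

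Library totals were between 19200632 and 29098915 counts in BT474 and between 16794594 and 33387936 in BT474R, so that 3 counts, used as the detection floor, corresponded to between 0.0934 and 0.174 CPM (counts scaled to a fixed library size). The epithelial markers EPCAM, KRT8, KRT18, KRT19, ERBB2 and GATA3 summed to 10720 to 14200 CPM in BT474 and to 9777 to 16430 CPM in BT474R. GATA3 was between 312 and 547 CPM in BT474 and between 10.4 and 55.4 CPM in BT474R. The 6 markers of other cells summed to 89.7 to 121 CPM and 183 to 299 CPM, and nearly all of this was COL1A1 and VWF, while PTPRC, CD3E and DCN had at most 2 counts in any library and PECAM1 at most 5. The part of these differences in the metallothionein values was not tested. At 24 h, replicate 2 was above replicate 1 in 6 of 6 groups for MT1X and in 5 of 6 for MT2A and MT1F, and values without single libraries are given below where they change a call or move a value strongly.

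Only 4 of the 10 genes had enough reads to be tested, and MT2A, the main metallothionein of most cells, made up most of the reads. MT2A held 77.5% of the family's counts in BT474 and 69.4% in BT474R. MT1X held 9.34% and 8.23%, MT1F held 8.78% and 22.4%, and MT1A held 4.37% and none. MT1A had 561 counts over the 20 BT474 libraries, between 12 and 46 in each, and 0 in all 20 BT474R libraries. The other members passed the low-count filter in neither line: over all 40 libraries, MT1E had 0 counts, MT1G, MT1L and MT1M had 1 each, MT3 had 2 and MT1H had 4. Another 6 metallothionein genes and pseudogenes in the table, which were not among the 10, had at most 8 counts each over the 20 libraries of a line.

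**Figure D1:**
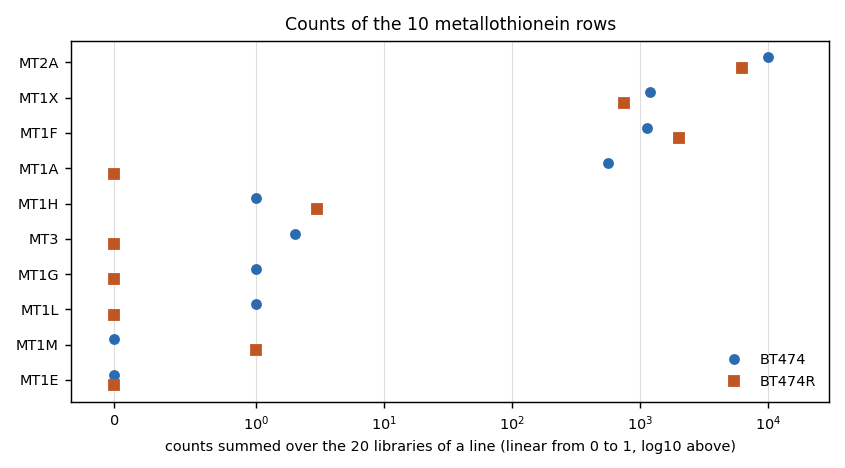
Summed counts of each metallothionein over the 20 libraries of each line, on an axis that is linear near 0 and logarithmic above. MT2A, MT1X and MT1F had counts in both lines, MT1A had 561 in BT474 and 0 in BT474R, and the other 6 genes had at most 3 in either line.

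Per kilobase of transcript, which allows genes to be compared, the level of MT2A at T0 was 53.7 ± 0.31 CPM per kb (SD, n = 2) in BT474, against 7.71 ± 0.0599 for MT1X, 7.50 ± 0.189 for MT1F and 3.42 ± 0.424 for MT1A. In BT474R it was 21.7 ± 4.75 CPM per kb for MT2A, 6.41 ± 0.222 for MT1F and 1.28 ± 0.833 for MT1X. The order MT1F over MT1X in BT474R differed from BT474, where both were alike within their spread. All levels below are in CPM, not per length, and compare 1 gene between groups.

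**Figure D2:**
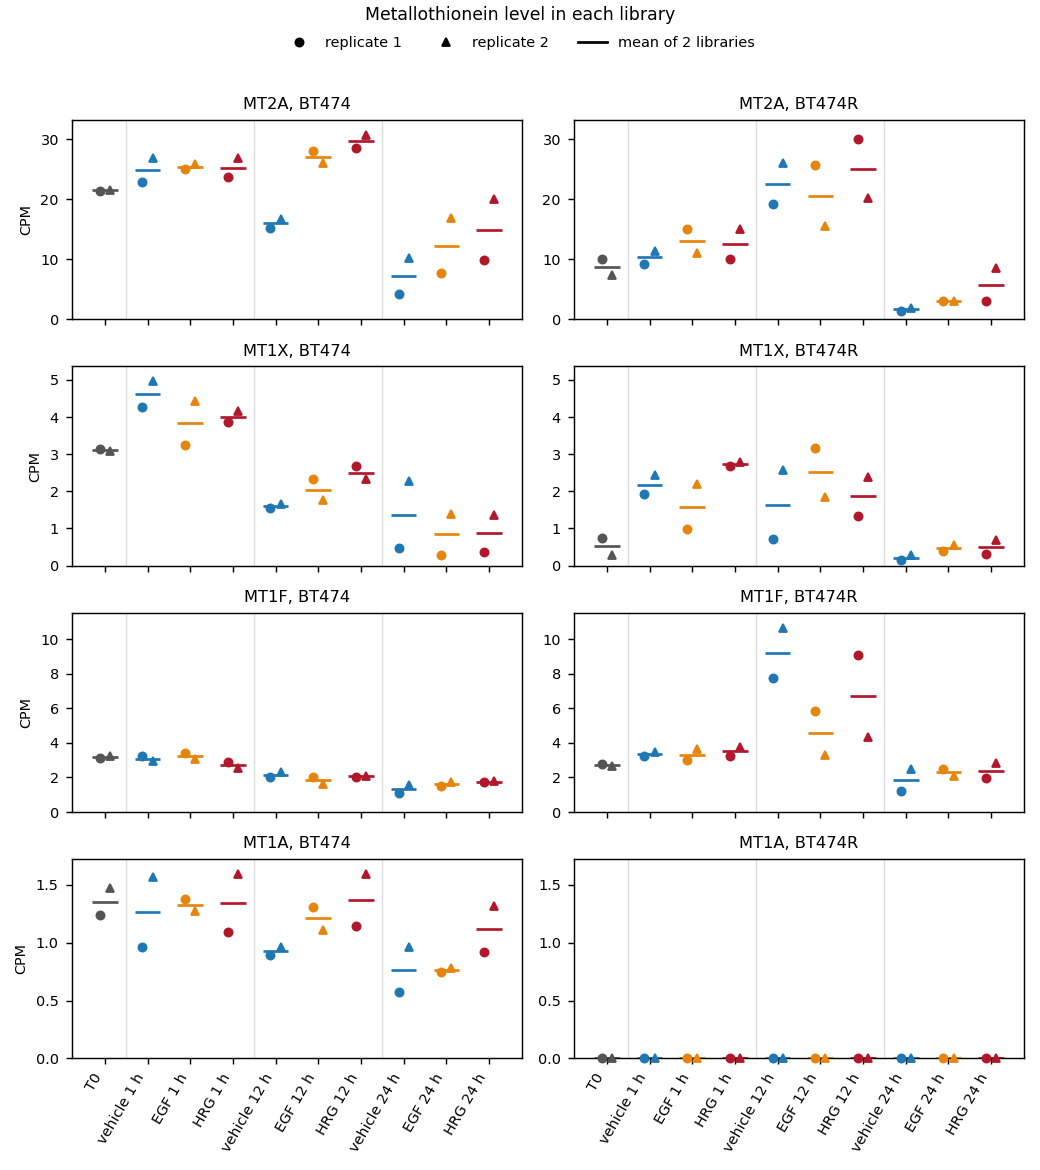
Level (CPM) of MT2A, MT1X, MT1F and MT1A in each library of BT474 and BT474R, by treatment and time, with circles for replicate 1, triangles for replicate 2 and a short line for the group mean. In BT474R the 12 h groups of MT2A stood highest at means of 20.6 to 25.1 CPM and the 24 h groups lowest at 1.63 to 5.75 CPM, and MT1A was at 0 throughout.

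At T0, before any ligand, BT474R held less metallothionein RNA than BT474. MT2A was at 21.5 and 21.6 CPM in the BT474 libraries and at 10.1 and 7.36 CPM in the BT474R libraries. The groups did not overlap, and the log2 difference was -1.29 (SE 0.332; edgeR quasi-likelihood test, adjusted p = 0.00129). MT1X was at 3.13 and 3.10 CPM in BT474 and at 0.755 and 0.280 CPM in BT474R, where these values rested on 13 and 6 counts. Its log2 difference was -2.62 (SE 0.602, adjusted p = 0.000383 by edgeR), and it was -3.48 without BT474R replicate 1 and -2.03 without BT474R replicate 2. MT1A averaged 1.36 CPM in BT474 and was at 0 in BT474R, hence at least 7.78-fold lower with a floor of 3 counts per library. In contrast, MT1F was nearly level at 3.13 and 3.24 CPM against 2.79 and 2.66 CPM (log2 difference -0.20, SE 0.299, adjusted p = 0.627 by edgeR). Thus MT2A and MT1X were called lower in BT474R and MT1F was not, in a comparison that called 46.9% of all genes tested. MT1A passed the low-count filter through its BT474 libraries alone, so its lower value is described without a test. The median log2 difference over all genes was 0. Bulk RNA was measured, so fewer cells that express a gene and less RNA per cell cannot be told apart.

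In BT474 that received vehicle, which was water in fresh starvation medium, the metallothioneins ended well below their T0 level at 24 h. At 1 h the 4 members tested had no call by edgeR or DESeq2 and none at an unadjusted p under 0.05, where 6.61% of all genes were called. MT2A stood at 22.8 and 26.9 CPM then. MT1X was at 4.275 and 4.97 CPM, above both T0 libraries, with a log2 difference of 0.58 (SE 0.288, adjusted p = 0.284 by edgeR). At 12 h, a comparison added after the values were seen, MT2A was at 15.3 and 16.7 CPM, MT1X at 1.55 and 1.65 CPM and MT1F at 2.03 and 2.29 CPM. All 3 genes were below T0 in both libraries, yet 0 of 4 members passed by edgeR (6.41% of all genes did) or by DESeq2, which gave MT1A no adjusted p, and 3 of 4 had an unadjusted p under 0.05.

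By 24 h of vehicle in BT474, 3 of 4 members had fallen from T0, in a comparison that called 11.4% of all genes. The median log2 change was -1.19 over the 4 members and -0.01 over all genes. MT2A was at 4.285 and 10.2 CPM, both under the T0 libraries, and fell by 1.54 on the log2 scale (SE 0.238, adjusted p = 9.06e-06 by edgeR). The change of MT2A was -2.33 without replicate 2 of vehicle at 24 h, the higher of the pair, and -1.08 without replicate 1, and both were called. MT1F was at 1.10 and 1.54 CPM and fell by 1.26 on the log2 scale (SE 0.211, adjusted p = 3.02e-05 by edgeR). MT1X was at 0.476 and 2.27 CPM, which are far apart, and fell by 1.11 on the log2 scale (SE 0.356, adjusted p = 0.035 by edgeR). Its call was lost with DESeq2 (adjusted p = 0.303) and without T0 replicate 1 (adjusted p = 0.168 by edgeR), T0 replicate 2 (adjusted p = 0.121 by edgeR) or vehicle replicate 1 at 24 h (log2 change -0.46, adjusted p = 0.488 by edgeR), and without vehicle replicate 2 the log2 change was -2.70. MT1A had a log2 change of -0.79 with an adjusted p of 0.12 by edgeR. From 12 h to 24 h of vehicle, also added after the values were seen, 1 of 4 members fell where 3.61% of all genes were called: MT2A had a log2 change of -1.10 (SE 0.244, adjusted p = 0.00418 by edgeR). That call was lost with DESeq2 (adjusted p = 0.0978), without vehicle replicate 2 at 12 h (adjusted p = 0.0687 by edgeR) and without replicate 1 at 24 h (log2 change -0.64, adjusted p = 0.229 by edgeR), and the change was -1.89 without replicate 2 at 24 h.

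In BT474R that received vehicle, MT1F and MT2A were called higher at 12 h than at T0, and the lowest levels were seen at 24 h. At 1 h the 3 members tested had no call by edgeR, which called 2.24% of all genes. MT1X alone had an unadjusted p under 0.05: it was at 1.94 and 2.43 CPM, above both T0 libraries, with a log2 difference of 2.12 (SE 0.572, adjusted p = 0.056 by edgeR), and DESeq2 called it. At 12 h, again added after the values were seen, 2 of 3 members rose, where 1.13% of all genes were called. MT1F was at 7.73 and 10.7 CPM, the highest group mean of this gene in either line, and the log2 change was 1.75 (SE 0.313, adjusted p = 0.00273 by edgeR). MT2A was at 19.2 and 26.0 CPM, above both T0 libraries, with a log2 change of 1.37 (SE 0.305, adjusted p = 0.0221 by edgeR). MT1X was at 0.711 and 2.57 CPM, so that its lower library lay among the T0 values, and the log2 change of 1.77 had an adjusted p of 0.242 by edgeR. Without vehicle replicate 1 at 12 h MT1X was called as well, which made the count 3 of 3. The call for MT1F was lost without T0 replicate 2 (adjusted p = 0.0928 by edgeR) or vehicle replicate 2 at 12 h (adjusted p = 0.0944 by edgeR). The call for MT2A was lost with DESeq2 (adjusted p = 0.104) and without T0 replicate 1 (adjusted p = 0.0692 by edgeR), T0 replicate 2 (adjusted p = 0.444 by edgeR) or vehicle replicate 2 at 12 h (adjusted p = 0.373 by edgeR).

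At 24 h of vehicle in BT474R all 3 members had their lowest group mean of the line. The 2 vehicle libraries at 24 h also entered the comparison by which the family was chosen, so the following differences are given as descriptions without a test. MT2A was at 1.34 and 1.92 CPM (36 and 41 counts), below every other BT474R library, MT1X at 0.149 and 0.281 CPM (4 and 6 counts) and MT1F at 1.23 and 2.48 CPM. For MT2A and MT1F both libraries were below the 12 h and the T0 libraries, and for MT1X they were below those at 12 h and overlapped T0. From 12 h to 24 h, a comparison added after the values were seen in which 15.0% of all genes were called, the log2 difference was -3.79 (SE 0.389) for MT2A, -2.33 (SE 0.323) for MT1F and -2.98 (SE 0.678) for MT1X, the last being -1.71 without vehicle replicate 2 at 12 h. The median over the 3 members was -2.98, against 0.03 for all genes. From T0 to 24 h, where 13.7% of all genes were called, the log2 difference was -2.41 (SE 0.447) for MT2A, -1.22 (SE 0.925) for MT1X and -0.58 (SE 0.397) for MT1F.

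The change from T0 to 12 h of vehicle differed between the lines for 2 of 3 members, in a test added after the values were seen that called 1.34% of all genes. For MT1F the log2 change in BT474R exceeded that in BT474 by 2.30 (SE 0.391, adjusted p = 0.000348 by edgeR), and the call held in all 8 fits with 1 library left out. DESeq2 gave MT1F no adjusted p in this comparison. For MT2A the log2 changes differed by 1.80 (SE 0.437, adjusted p = 0.0224 by edgeR). That call was lost with DESeq2 (adjusted p = 0.0982) and in 6 of 8 fits with 1 library left out, namely without either T0 replicate of BT474 (adjusted p = 0.0739 without replicate 1 and 0.0636 without replicate 2 by edgeR), either vehicle replicate at 12 h of BT474 (0.101 and 0.0624), T0 replicate 2 of BT474R (0.188) or vehicle replicate 2 at 12 h of BT474R (0.16). The MT1X changes differed by 2.73 with an adjusted p of 0.0784 by edgeR, and this difference was called without vehicle replicate 1 at 12 h of BT474R. For the change from T0 to 24 h, which uses the same vehicle libraries of BT474R and has no test here (6.46% of all genes were called), the log2 difference between the lines was -0.88 (SE 0.638) for MT2A, 0.67 (SE 0.472) for MT1F and -0.11 (SE 1.02) for MT1X.

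**Figure D3:**
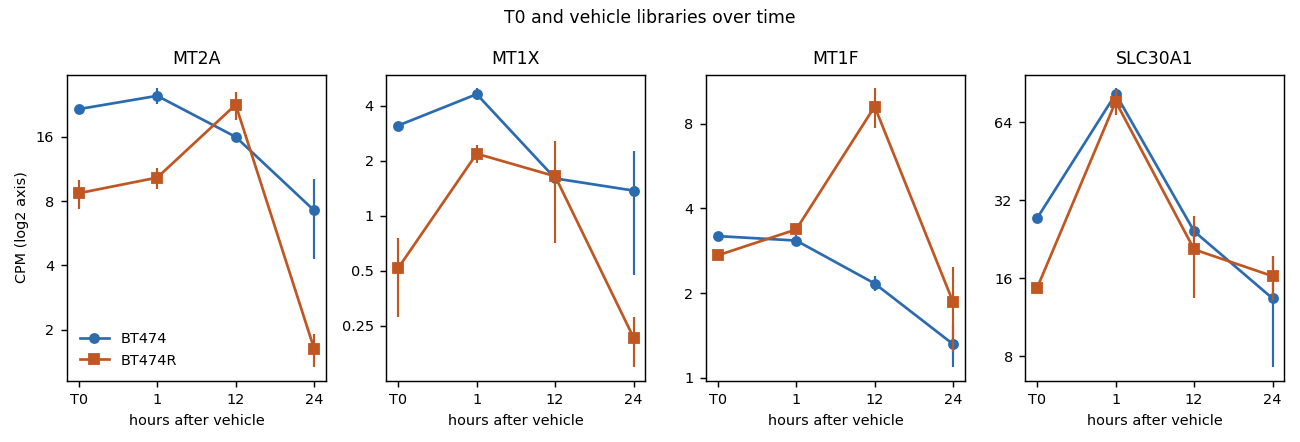
Level (CPM, log2 axis) of MT2A, MT1X, MT1F and the zinc exporter gene SLC30A1 at T0 and after 1, 12 and 24 h of vehicle, by line. Points are means and bars span the 2 libraries. MT2A and MT1F rose from T0 to 12 h in BT474R and not in BT474, all 3 metallothioneins stood lowest at 24 h in both lines, and SLC30A1 peaked at 1 h.

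SLC30A1, the zinc exporter that MTF1 switches on with the metallothioneins, rose within 1 h of vehicle in both lines. Its mean went from 27.3 to 82.4 CPM in BT474 (log2 change 1.60, SE 0.158, adjusted p = 1.38e-09 by edgeR) and from 14.7 to 77.1 CPM in BT474R (log2 change 2.37, SE 0.352, adjusted p = 3.23e-04 by edgeR). With EGF or HRG at 1 h the group means were between 75.3 and 79.6 CPM, so that the rise was present with and without ligand. In BT474 SLC30A1 was lower than T0 at 24 h of vehicle (log2 change -0.99, adjusted p = 3.42e-04 by edgeR). Its libraries there were far apart, at 7.285 and 19.4 CPM, and values without single libraries were not obtained for this gene. MTF1 itself stayed between group means of 25.8 and 30.6 CPM in BT474 and of 51.0 and 57.9 CPM in BT474R, and at T0 it was higher in BT474R by 0.93 on the log2 scale (adjusted p = 1.66e-15 by edgeR).

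Genes of zinc and copper transport and handling, 33 in all, moved in both directions with vehicle. At 1 h in BT474 (6.61% of all genes called), 1 of 30 tested rose (SLC30A1) and 1 fell. The latter was CCS, the copper chaperone of superoxide dismutase (log2 change -0.29), and the list median was -0.05 against 0.01 for all genes. At 1 h in BT474R (2.24% called), 1 of 30 rose, again SLC30A1, and none fell. At 12 h, 3 rose and none fell in BT474 (6.41% called), and none passed in BT474R (1.13% called), where 3 had an unadjusted p under 0.05. At 24 h, 5 rose and 2 fell in BT474 (11.4% called), the latter including the zinc importer SLC39A4 (log2 change -0.98). In BT474R (13.7% called), 1 rose and 3 fell at 24 h, the latter including the superoxide dismutase gene SOD1 (log2 change -0.27). Between the lines at T0, 14 were higher and 5 lower in BT474R, a share above the 46.9% of all genes called. The higher ones included the zinc transporter SLC30A3 (log2 difference 2.64) and the copper importer SLC31A1 (1.46), and the lower ones the zinc importer SLC39A8 (-1.60) and SLC30A1 (-0.86, adjusted p = 0.0419 by edgeR).

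Lists for other known inducers gave the following counts. Of 10 targets of the oxidative stress factor NRF2, 7 fell and none rose from T0 to 24 h of vehicle in BT474 (11.4% of all genes called), including the cystine importer SLC7A11 (log2 change -0.84). In BT474R, 3 fell and 1 rose (13.7% called), the latter being the heme oxygenase HMOX1 (log2 change 1.00). Of 8 heat shock genes, 4 fell in BT474 at 1 h of vehicle (6.61% called), and none passed in BT474R (2.24% called), where 3 had an unadjusted p under 0.05. At 24 h of vehicle 2 of them fell in BT474, and 1 rose and 1 fell in BT474R. Of 8 genes of the glucocorticoid response, 2 were called higher at 1 h of vehicle in BT474. By 24 h there, 3 had fallen, among them KLF9 (log2 change -0.54), and 1 had risen. Of 7 tested in BT474R, 1 rose at each of these times, KLF9 at 1 h (log2 change 0.55) and the clock gene PER1 at 24 h (log2 change 1.14). At T0, where 46.9% of all genes were called, 3 of 7 glucocorticoid response genes tested were higher in BT474R and 3 lower. The log2 difference was 0.55 for the receptor gene NR3C1 and -2.52 for KLF9. Of 10 NRF2 targets 2 were higher and 4 lower at T0, and of 8 heat shock genes 4 were higher and 1 lower.

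In BT474, MT2A was the member called higher with ligand than with vehicle of the same time. At 1 h, 0 of 4 members passed for EGF (2.19% of all genes called) or HRG (2.77% called) by edgeR or DESeq2, and none had an unadjusted p under 0.05. At 12 h, MT2A was at 15.3 and 16.7 CPM with vehicle, at 28.1 and 26.1 CPM with EGF and at 28.6 and 30.8 CPM with HRG. Both ligand groups lay above vehicle without overlap, and the HRG libraries were the highest of the line. With EGF, 1 of 4 members was called among 16.0% of all genes, with an MT2A log2 change of 0.76 (SE 0.200, adjusted p = 0.00606 by edgeR). This call was lost with DESeq2 (adjusted p = 0.21) and without vehicle replicate 1 (adjusted p = 0.0903 by edgeR) or EGF replicate 1 (adjusted p = 0.077 by edgeR). With HRG, 1 of 4 was called among 25.8% of all genes, with an MT2A log2 change of 0.89 (SE 0.194, adjusted p = 0.000477 by edgeR). Without each library in turn the change was between 0.82 and 0.95 and the call remained, whereas DESeq2 gave an adjusted p of 0.0969. The share of members called was thus close to the share of all genes called with HRG.

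The other members did not pass at 12 h in BT474. MT1X was at 2.32 and 1.78 CPM with EGF and at 2.68 and 2.32 CPM with HRG, against 1.55 and 1.65 CPM with vehicle. Both groups stood above vehicle, but the HRG log2 change had an unadjusted p of 0.0802. MT1F was at 2.01 and 1.64 CPM with EGF and at 2.04 and 2.11 CPM with HRG, against 2.03 and 2.29 CPM with vehicle. Both EGF libraries were below vehicle (log2 difference -0.24, adjusted p = 0.525 by edgeR) and the HRG libraries overlapped it.

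At 24 h in BT474, the replicates of MT2A and MT1X were so far apart that their ligand groups overlapped vehicle. MT2A was at 4.285 and 10.2 CPM with vehicle, at 7.65 and 16.9 CPM with EGF and at 9.865 and 20.02 CPM with HRG. In each replicate number taken alone, HRG was above EGF and EGF above vehicle. All of these libraries were below both T0 libraries (21.5 and 21.6 CPM), whereas the ligand libraries at 12 h were above both. With HRG, where 24.1% of all genes were called, 1 of 4 members passed: MT2A had a log2 change of 0.95 (SE 0.248, adjusted p = 0.00342 by edgeR). That call was lost with DESeq2 (adjusted p = 0.0508). It was also lost by edgeR without vehicle replicate 1 (MT2A log2 change 0.51) or HRG replicate 2 (MT2A log2 change 0.38). In those edgeR fits MT1X was called instead, as lower with HRG than with vehicle. Without vehicle replicate 2 the MT2A change was 1.76. With EGF, where 16.4% of all genes were called, 0 of 4 members passed by edgeR or DESeq2 and 1 had an unadjusted p under 0.05, MT2A with a log2 difference of 0.67 (adjusted p = 0.0755 by edgeR). That count became 1 of 4 in each fit with 1 library left out: MT2A was called without vehicle replicate 2 or EGF replicate 1, and MT1X without vehicle replicate 1 or EGF replicate 2. MT1X leaned the other way from MT2A, also in the fits that called it. It was at 0.476 and 2.27 CPM with vehicle, 0.299 and 1.38 CPM with EGF and 0.375 and 1.36 CPM with HRG. Its log2 differences of -0.88 with EGF (adjusted p = 0.231 by edgeR) and -0.83 with HRG (adjusted p = 0.206 by edgeR) did not pass. MT1F was at 1.74 and 1.77 CPM with HRG against 1.10 and 1.54 CPM with vehicle, above it without overlap (log2 difference 0.37, SE 0.23, adjusted p = 0.275 by edgeR), while EGF, at 1.53 and 1.75 CPM, overlapped. MT1A had group means of 0.766 CPM with vehicle, 0.765 CPM with EGF and 1.12 CPM with HRG.

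In BT474R, the only member called with a ligand, outside the comparison that chose the family, in the fit of all libraries was MT1F. It was lower with EGF than with vehicle. At 1 h, 0 of 3 members passed for EGF (0.457% of all genes called) or HRG (0.169% called) by edgeR or DESeq2, with none at an unadjusted p under 0.05. At 12 h, MT1F was at 7.73 and 10.7 CPM with vehicle, 5.84 and 3.303 CPM with EGF and 9.07 and 4.32 CPM with HRG. Both EGF libraries were below vehicle but above both T0 libraries (2.79 and 2.66 CPM), while the HRG libraries overlapped vehicle. With EGF, 1 of 3 members was called among 12.0% of all genes. MT1F was lower than vehicle by 1.01 on the log2 scale (SE 0.278, adjusted p = 0.0191 by edgeR). The call was lost without vehicle replicate 2 (log2 change -0.73) or EGF replicate 2 (-0.67). Without vehicle replicate 2 MT1X was called instead, as higher with EGF than with vehicle. With HRG, where 4.12% of all genes were called, 0 of 3 passed by edgeR or DESeq2 and none had an unadjusted p under 0.05, with an MT1F log2 difference of -0.48 (adjusted p = 0.388 by edgeR). MT2A at 12 h was at 19.2 and 26.0 CPM with vehicle, 25.8 and 15.5 CPM with EGF and 30.1 and 20.2 CPM with HRG. These groups overlapped, and the EGF log2 difference was -0.14 (95% interval -0.70 to 0.42).

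At 24 h in BT474R, the comparison of HRG with vehicle chose the family and is described only. MT2A was at 1.34 and 1.92 CPM with vehicle and at 3.01 and 8.50 CPM with HRG, which rested on 65 and 183 counts. Both HRG libraries were above vehicle, and the higher was 2.83 times the lower. The log2 difference was 1.84 (SE 0.471), or 3.58-fold. It was 2.38 without HRG replicate 1 and 0.90 without HRG replicate 2. MT1X was at 0.324 and 0.697 CPM with HRG (log2 difference 1.27, SE 0.896) and MT1F at 1.94 and 2.83 CPM (0.40, SE 0.398). All genes in this comparison were called at 2.78%. Replicates of these groups also differed over genes at large. The median chi-square between replicates was 2.53 with HRG and 1.63 with vehicle, against 0.455 for counting noise alone. Those were the 2 highest values of all groups, and their part in the MT2A values was not tested. With EGF at 24 h, which shares the vehicle libraries and is likewise a description, MT2A was at 3.05 and 2.97 CPM, also above both vehicle libraries. The log2 difference was 0.90 (SE 0.521) for MT2A, 1.17 (SE 0.889) for MT1X and 0.33 (SE 0.394) for MT1F, and 17.3% of all genes were called. Compared with T0, MT2A with HRG at 24 h was below both libraries in replicate 1 and between them in replicate 2.

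**Figure D4:**
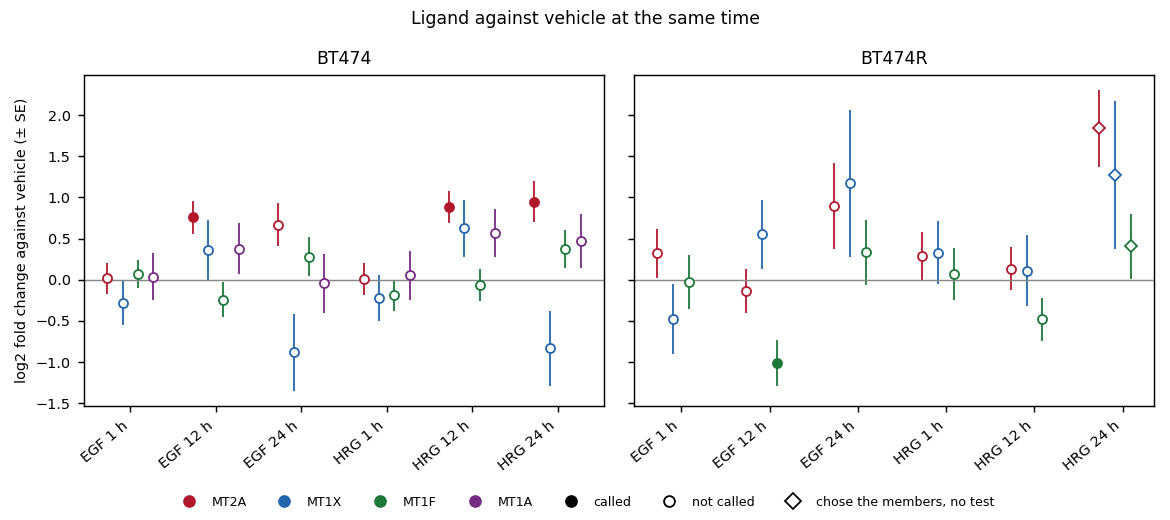
Log2 fold change of MT2A, MT1X, MT1F and MT1A against vehicle of the same time point, with standard error, for EGF and HRG by time and line. Filled points passed the edgeR test, open points did not, and the diamonds mark HRG at 24 h in BT474R, which chose the genes and has no test. The open points of EGF at 24 h in BT474R share its vehicle libraries and are descriptions without a test. In BT474 the MT2A points at 12 h and for HRG at 24 h are filled and lie between 0.76 and 0.95, and in BT474R the one filled point is MT1F with EGF at 12 h, at -1.01.

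No member was called between HRG and EGF. In BT474 at 12 h and 24 h, where 2.17% and 0.768% of all genes were called, and in BT474R at 12 h, where 1.42% were, 0 members passed by edgeR and none had an unadjusted p under 0.05. DESeq2 called none in BT474R at 12 h and did not call MT2A in BT474 at 12 h, and it gave no adjusted p for the other 3 members in BT474 at 12 h or for any at 24 h. The MT2A log2 difference (HRG minus EGF) was 0.13 (95% interval -0.25 to 0.50) and 0.28 (-0.18 to 0.74) in BT474, and 0.27 (-0.28 to 0.83) in BT474R. At 24 h in BT474, MT2A was called without EGF replicate 2, which makes that count 1 of 4. In BT474R at 24 h, given as a description, it was 0.94 (SE 0.416).

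No member was called for a difference between the lines in ligand effect. For EGF the test called 0.138% of all genes after 1 h and 1.96% after 12 h. After 24 h it called 4.01%, but that comparison uses the vehicle libraries that chose the family, so the members are described only. For HRG it called 0.544% after 1 h and 4.07% after 12 h. None of MT2A, MT1X and MT1F passed by edgeR for either ligand at 1 h or 12 h, and MT2A with EGF at 12 h alone had an unadjusted p under 0.05. DESeq2 called none either, but gave no adjusted p for MT1X and MT1F with HRG at 12 h. With EGF at 12 h the effect on MT2A in BT474R minus that in BT474 was -0.91 (SE 0.398, adjusted p = 0.349 by edgeR). With HRG at 12 h it was -0.77 (SE 0.388, adjusted p = 0.348 by edgeR). For HRG at 24 h, which uses the choosing comparison, the MT2A difference was 0.84 (SE 0.656), and for EGF at 24 h it was 0.21 (SE 0.703), both as descriptions. MT1A, at 0 in BT474R, gave no value here.

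Counts of all 10 genes were also summed, so that reads split between paralogs stay together. The summed level averaged 29.2 CPM at T0 and, under vehicle in BT474, 33.8 CPM after 1 h, 20.7 CPM after 12 h and 10.7 CPM after 24 h. In BT474R it averaged 11.9, 15.9, 33.4 and 3.70 CPM at the same times. The log2 difference of the sum between lines at T0 was -1.31 (SE 0.303), and the vehicle difference from T0 to 24 h was -1.41 (SE 0.214) in BT474 and -1.70 (SE 0.371) in BT474R. With HRG in BT474R at 24 h the summed log2 difference was 1.26 (SE 0.382), smaller than that of MT2A alone.

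Zinc and copper genes changed in both directions with ligand in BT474. With HRG at 12 h, 4 of 30 rose and 7 fell, against 25.8% of all genes called, and with EGF at 12 h 1 rose and 2 fell (16.0% called). At 24 h in BT474 the counts were 2 up and 4 down with HRG (24.1% called) and 2 up and 3 down with EGF (16.4% called). The importer SLC39A14 was among those that rose with HRG (log2 change 0.24 at 12 h), and CCS among those that fell (-0.45). In BT474R 3 fell with EGF at 12 h (12.0% called), and 2 rose and 3 fell with EGF at 24 h (17.3% called). None passed with HRG at 12 h there (4.12% called), where 6 had an unadjusted p under 0.05. Of 10 NRF2 targets in BT474, 5 rose and 1 fell at 24 h with each ligand (16.4% of all genes called with EGF and 24.1% with HRG), including the malic enzyme gene ME1 (log2 change 0.40 with EGF and 0.53 with HRG). At 12 h in BT474, EGF raised 2 and lowered 1 (16.0% called), and HRG raised 4 and lowered 1 (25.8% called). In BT474R, EGF raised 2 and lowered 1 after 12 h (12.0% called) and raised 4 and lowered 1 after 24 h (17.3% called), and HRG raised 1 and lowered 1 after 12 h (4.12% called).

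Of 8 glucocorticoid response genes in BT474, 3 rose and none fell at 1 h with each ligand (2.19% of all genes called with EGF and 2.77% with HRG), among them the phosphatase gene DUSP1 (log2 change 1.64 with EGF and 1.84 with HRG). With HRG, 4 of 8 fell and none rose at 12 h (25.8% called) and again at 24 h (24.1% called). With EGF, 1 fell at 12 h and none passed at 24 h, where 4 had an unadjusted p under 0.05. Of 7 tested in BT474R, EGF raised 1 after 1 h, lowered 1 after 12 h and raised 2 and lowered 2 after 24 h, and HRG lowered 1 after 12 h. Of 8 heat shock genes in BT474, 1 rose at 1 h with each ligand, the co-chaperone DNAJB1 (0.54 with EGF and 0.66 with HRG). After 12 h EGF raised 3 and lowered none, and HRG raised 4 and lowered 2. After 24 h each ligand raised 4 and lowered 1. In BT474R, EGF raised 1 after 12 h, and raised 5 and lowered 1 after 24 h. The shares of all genes called at 12 h and 24 h are those given for the NRF2 targets. At 1 h the shares in BT474 are those given above, and the share with EGF in BT474R was 0.457%.

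In BT474 the 2 replicates of MT2A and MT1X lay farthest apart at 24 h. The higher MT1X library was 4.76 times the lower with vehicle, 4.63 times with EGF and 3.62 times with HRG. For MT2A in the same groups the ratios were 2.38, 2.21 and 2.03. Replicate 2 was the higher in each of these 6 pairs. Among 23366 genes, replicate 2 was above replicate 1 in all 6 groups at 24 h for 4.04% and below it in all 6 for 4.62%. Whether libraries with the same number were handled together is not stated, and its part in these values was not tested.

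Across the 10 group means of each line, the gene most like MT2A was TSEN15, a subunit of the tRNA splicing endonuclease, with a Pearson correlation of 0.965 in the line where it was smaller. CNBP (0.912), RBM3 (0.908), GTF2F1 (0.905) and ZNF496 (0.901) followed among 12616 genes ranked. These are descriptions over 10 groups that share libraries with the choice of the genes. TSEN15 moved over a narrower range than MT2A, with group means of 14.6 to 26.0 CPM.

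Genes on both sides of the cluster gave mixed counts. Of the 10 nearest protein-coding genes, 5 on each side, 2 were higher and 6 lower in BT474R at T0, where 46.9% of all genes were called. From T0 to 24 h of vehicle, 4 of 10 fell in BT474 (11.4% of all genes called) and 2 of 9 fell in BT474R (13.7% called), and none rose. With ligand at 24 h in BT474, 2 of 10 rose and none fell for either ligand (16.4% called with EGF and 24.1% with HRG), and with EGF at 12 h in BT474R, 2 of 9 rose and 1 fell (12.0% called). One of the 2 was NLRC5, a regulator of MHC class I genes, with a log2 change of 2.58.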

How the data were processed

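RNA was measured in 40 libraries. The deposited values are raw gene counts. The authors sequenced paired reads of 101 bases, checked them with FastQC and MultiQC, trimmed them with Trim Galore 0.6.6 and obtained counts on GRCh38.p13 with featureCounts (Rsubread 2.6.4). The gene annotation, whether counting used strand, and how reads with several matches were handled are not given in the sources used here. All columns were used.

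A gene was tested if 50% of a fit's libraries had at least 1 count. Tests were quasi-likelihood F tests of edgeR 4.0.16 with TMM scaling in R 4.3.3, in 1 fit per line (25146 genes in BT474, 24287 in BT474R) and 1 fit of all 40 libraries (24641 genes) for differences between lines. P-values were adjusted by Benjamini-Hochberg across every gene of a fit, and a call needed an adjusted p below 0.05. CPM used TMM-scaled totals. Intervals are 95% intervals of the same fits, and group means are given with the SD or range of 2 libraries. DESeq2 1.42.0, other filters, fits of fewer libraries, a replicate block and leaving out each library were alternatives. Scripts were tested on simulated data.

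The members and the lists were chosen with earlier results of these data known. Named are all 10 members, members of the lists, the 5 protein-coding genes on each side of the cluster, and the 5 genes with the highest smaller Pearson correlation with MT2A (log2 CPM, prior count 2, mean of at least 1 CPM in each line). Which list members are named was decided after their values were seen. The result of 1 list gene is not reported here.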

Additional observations from a re-analysis of the deposited data

Results flagged for a closer look

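The change from T0 to 12 h of vehicle differed between the lines for MT1F, by 2.30 on the log2 scale (BT474R minus BT474, SE 0.391, edgeR adjusted p = 0.000348), and for MT2A, by 1.80 (SE 0.437, edgeR adjusted p = 0.0224). Both came up by a test of the difference itself, in a comparison added after the values were seen. DESeq2 gave MT1F no adjusted p and did not call MT2A. The MT2A call was also lost in 6 of 8 fits with 1 library left out.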

How the results depend on the processing

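No value changed direction, but in some fits a different member that moved the opposite way was called instead or as well. CPM without TMM factors moved 7 of 7 median levels, each of 1 detected member in 1 line, by less than the spread between replicates. DESeq2's size factors in edgeR changed no call. In what follows, counts are of members called, and the causes of changes were not tested unless stated. DESeq2's test gave 0 in place of 1 for EGF at 12 h, HRG at 12 h and HRG at 24 h in BT474 and for vehicle at 24 h against 12 h in BT474, 1 in place of 2 for vehicle at 12 h against T0 in BT474R, 0 in place of 2 for the difference between lines in the vehicle change to 12 h (where it gave MT1F no adjusted p), and 1 in place of 0 for vehicle at 1 h in BT474R. In the comparisons of HRG with EGF in BT474 it gave no adjusted p for MT1A, MT1F and MT1X at 12 h, nor for any member at 24 h. It gave none for MT1F and MT1X in the HRG effect between lines after 12 h. edgeR's own filter gave 1 in place of 0 for vehicle at 12 h against T0 in BT474, and MT1X was no longer called for vehicle at 24 h (adjusted p = 0.0588 by edgeR).

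Without a low-count filter, the counts in BT474 were 2 in place of 0 for EGF at 24 h and vehicle at 12 h against T0. HRG at 12 h and at 24 h in BT474 gave 2 in place of 1. The count was 1 in place of 0 for vehicle at 1 h in each line and for the EGF and HRG effects between lines after 12 h. Comparisons with the vehicle libraries of BT474R at 24 h are left out of these counts, since those libraries entered the choice of the family. With only the compared libraries in the fit, the counts in BT474 were 2 in place of 1 for HRG at 12 h and 2 in place of 0 for vehicle at 12 h against T0. They were 1 in place of 0 for EGF at 24 h in BT474, vehicle at 1 h in each line and the EGF and HRG effects between lines at 12 h.

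The replicate numbers share no stated batch, and deviations of libraries with the same number correlated between -0.102 and 0.392 over 15041 genes. The highest value was that of HRG and vehicle in BT474R at 24 h, the comparison that chose the family. A replicate block lost no call and gave 1 in place of 0 for EGF at 24 h in BT474, vehicle at 1 h in BT474R and vehicle at 12 h against T0 in BT474. A replicate block within each time point, added after seeing the data, gave 1 in place of 0 for EGF at 24 h in BT474 and vehicle at 1 h in each line, 2 in place of 1 for HRG at 12 h in BT474 and 2 in place of 0 for vehicle at 12 h against T0 in BT474.

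Without each library in turn, the count ranged from 0 to 1 for EGF at 12 h in each line, HRG against EGF at 24 h in BT474 and vehicle at 24 h against 12 h in BT474, was 1 in all 4 fits for EGF at 24 h in BT474, and ranged from 0 to 3 for vehicle at 12 h against T0 in BT474R and from 1 to 3 for the vehicle change to 12 h between lines. The MT2A difference of HRG from vehicle in BT474R at 24 h ranged from 0.90 to 2.38. Leaving out libraries was not run for the ligand effects between lines at 1 h and 24 h or for the vehicle change to 24 h. With 4 to 13 counts per library in some BT474R groups, depth limits what can be said of MT1X.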
